A study of Mus musculus with 8 samples.

Results

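The Bcl2 family holds the survival and death proteins that meet at the outer mitochondrial membrane. Of its mouse genes, 10 were examined here by name: Bcl2, Bcl2l1, Bcl2l10 and Mcl1, grouped as survival-type members, Bax, Bak1 and Bok, the pore-forming effectors, and Bid, Bad and Bcl2l11, the BH3-only members. The members were all probe sets that the platform annotation assigns to one of these symbols alone. They numbered 29 probe sets of 9 genes, among 45037 probe sets on the array. The 932 probe sets annotated to several genes were not used as members. No probe set used is named for Bax, so its mRNA was not analysed here. Of the 29 probe sets, 14 from 6 genes lay above the median signal of the array on at least 4 of the 8 arrays and were tested, and 15 were too dim and are given by their signals.

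The arrays held mRNA bound to polysomes, the strings of ribosomes on mRNAs under translation. The groups were 4 batches of α-amanitin-treated one-cell embryos, in which this toxin inhibits RNA polymerase II, and 4 batches of metaphase II (MII) oocytes, with 160 to 500 cells per batch. Strain, age, hours after fertilization and the dose of α-amanitin are not given in the labels, and stage and treatment changed together, so they cannot be told apart. Signals are in arbitrary units relative to the whole array. More cells carrying an mRNA and more of it per cell cannot be told apart in a batch, and nor can the amount of an mRNA and its share on ribosomes, since total mRNA was not analysed here.

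In healthy cells the survival proteins (Bcl-2, Bcl-xL and Mcl-1) hold the effectors Bax and Bak in check. BH3-only proteins such as Bim, the product of Bcl2l11, carry death signals: they bind the survival proteins and can activate the effectors, which then open the membrane and release cytochrome c. In the ovary this balance is known to set how many oocytes survive, and Mcl-1 is known to be needed for oocyte survival in the mouse.

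The arrays differed in quality. The median signal was 71.8 on one-cell array 1 and 27.8 to 37.9 on the other one-cell arrays, against 26.9 to 33.8 on the MII arrays. The 18 control probe sets for RNA spiked in at hybridization averaged (geometric mean) 14879 on one-cell array 1 and 857 to 3718 on the other one-cell arrays, against 905 to 1364 on the MII arrays. Correlations of log2 signal over the probe sets tested were 0.763 to 0.944 among one-cell arrays and 0.928 to 0.958 among MII arrays. Between the groups they were 0.587 to 0.832, so the lowest value among one-cell arrays was below the highest between the groups. All 12 oocyte marker genes examined (among them Zp3, Gdf9 and Mos) lay above the array median on all 8 arrays. They were not steady between the groups: 3 passed the test as higher and 3 as lower. Among the lower were Mos (log2 change -5.57, limma, adjusted p = 1.52e-08) and Gdf9 (-2.17, adjusted p = 0.000960). The 11 cumulus and granulosa cell markers with a probe set had a summed signal of 448.5 to 1351 on one-cell arrays, against 584 to 670.0 on MII arrays, and 3 of them were above the median on all arrays. Of these 11, Cyp11a1 passed the test as higher, with 105 ± 72.2 in one-cell embryos and 32.7 ± 8.79 in MII oocytes (SD, n = 4 each; log2 change 1.26, limma, adjusted p = 0.0320). The 7 sperm markers summed to 169.8 to 454 on one-cell arrays, against 153 to 244 on MII arrays, and of them Prm2 passed the test as higher (log2 change 1.96, limma, adjusted p = 0.00103) and Akap4 as lower (-1.77, adjusted p = 0.00333). The 3 leukocyte markers summed to 72.3 to 214.7 on one-cell arrays, against 65.8 to 95 on MII arrays. The part of these other cells in the results below was not tested.

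Polysomal mRNA of Bcl2l1 and of 3 of the 5 tested Mcl1 probe sets rose in one-cell embryos, and that of Bcl2l11 fell on 2 of its 4 tested probe sets. Thus 7 of the 14 tested probe sets passed, 5 higher and 2 lower (limma, adjusted p under 0.05). Over the whole array 32.1% of tested probe sets passed, with 19.3% higher and 12.8% lower. After quantile normalization 2 member probe sets passed as higher, both of Bcl2l1, and with array weights or without one-cell array 1, 4 passed as lower. A probe set could be kept through its brighter group alone, so the count over the 14 is a description. The same 7 member probe sets were those whose one-cell and MII arrays did not overlap, as was so for 32.6% of all tested probe sets. The median change was 0.59 on the log2 scale over the 14 member probe sets and 0.17 over all tested probe sets. The median of all moved to -0.12 after quantile normalization and to -0.15 with each array centred on its median, so small changes depend on the scaling. Of all calls 60.2% were higher with the signals as deposited and 48.7% after quantile normalization. Here and below, a log2 change is one-cell embryo minus MII oocyte of log2(signal + 10) with the limma SE. It understates the change of dim mRNAs.

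**Figure D1:**
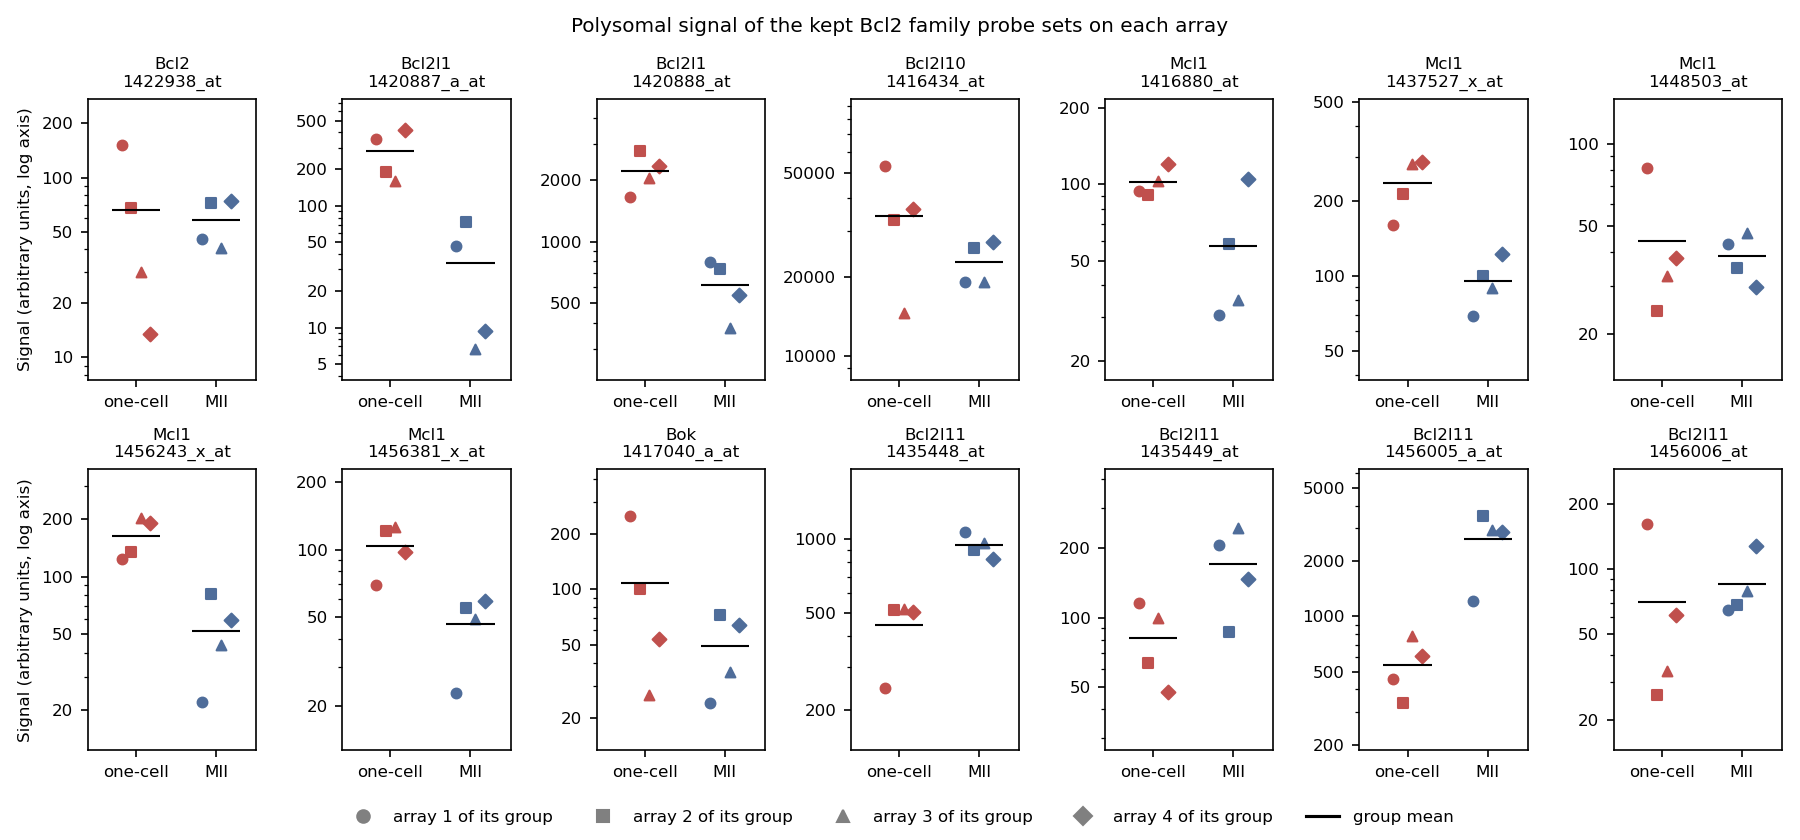
Signal of each of the 14 tested Bcl2 family probe sets (arbitrary units, log axis, a scale for each panel) on 4 one-cell arrays (red) and 4 MII arrays (blue), with a marker shape for each array number and a line at the group mean. The groups separate for both Bcl2l1 probe sets, 3 of Mcl1 and 2 of Bcl2l11, and they overlap in the other 7 panels.

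The promoter windows of the 3 genes that changed are shown because these genes carry all the member calls. They are 70 bases before to 30 after each annotated start, from RefSeq on GRCm38.p6, with the GC box (GGGCGG on either strand) in capitals. The embryos had been given a transcription inhibitor and no promoter was measured, so these sequences describe the genes and not the change.
Bcl2l1 start 1, chr2:152828460-152828559, minus strand: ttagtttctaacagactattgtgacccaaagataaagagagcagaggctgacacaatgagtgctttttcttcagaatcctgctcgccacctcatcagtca
Bcl2l1 start 2, chr2:152830688-152830787, minus strand: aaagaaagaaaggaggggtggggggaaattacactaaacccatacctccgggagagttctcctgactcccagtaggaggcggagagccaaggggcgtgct
Bcl2l1 start 3, chr2:152831699-152831798, minus strand: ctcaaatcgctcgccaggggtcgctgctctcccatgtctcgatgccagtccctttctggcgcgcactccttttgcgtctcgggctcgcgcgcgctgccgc
Mcl1 start 1, chr3:95658651-95658750, plus strand: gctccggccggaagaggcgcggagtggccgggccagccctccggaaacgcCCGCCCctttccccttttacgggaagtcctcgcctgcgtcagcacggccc
Bcl2l11 start 1, chr2:128125968-128126067, plus strand: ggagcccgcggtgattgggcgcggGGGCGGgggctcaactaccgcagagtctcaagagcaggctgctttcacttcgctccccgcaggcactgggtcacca
Bcl2l11 start 2, chr2:128127505-128127604, plus strand: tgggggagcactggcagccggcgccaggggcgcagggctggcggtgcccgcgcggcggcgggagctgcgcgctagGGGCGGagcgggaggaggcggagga

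The table held 13 such windows for 9 of the 10 members, each read over 300 bases (250 before to 50 after the start). A GC box was found in 8 of the 13, against 35.7% of all 32851 promoter windows, and a TATA box (TATAAA on either strand) in 0, against 13.6%. The windows of Mcl1 and of both starts of Bcl2l11 held a GC box, and the 3 windows of Bcl2l1 held none of either motif. Their GC content was 49.3%, 55.7% and 52.3% for Bcl2l1, 65.7% for Mcl1, and 71.0% and 74.0% for Bcl2l11, beside a median of 52.7% over all windows.

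Bcl2l1 encodes the survival protein Bcl-xL, and its longer known splice form protects cells while the shorter one promotes death. Its brightest probe set, 1420888_at, had signals of 1648, 2765, 2047 and 2337 on one-cell arrays 1 to 4, against 797, 731, 379 and 545 on MII arrays 1 to 4. The lowest embryo batch was above the highest oocyte batch. The mean was 2199 ± 471 in one-cell embryos and 613 ± 189 in MII oocytes (SD, n = 4 each), which is 3.59-fold higher, and the log2 change was 1.86 ± 0.31 (limma, adjusted p = 0.000218).

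The probe set 1420887_a_at of Bcl2l1 gave 351.9, 187.5, 159.3 and 418 on one-cell arrays, against 46.4, 72.9, 6.7 and 9.3 on MII arrays. Every embryo batch was again above every oocyte batch, and MII arrays 3 and 4 were far dimmer than the other MII arrays. The log2 change was 2.94 ± 0.49 (limma, adjusted p = 0.000253). Only 2 of the 4 MII signals were above the array median, so the oocyte level and the size of the rise are poorly set. With an offset of 50 in place of 10 the log2 change was 1.97, and with an offset of 1 it was 3.49.

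The other Bcl2l1 probe sets were too dim to be tested. 1426191_a_at had 18.5, 35.7, 28.7 and 116 on one-cell arrays, against 4.9, 4.3, 5.1 and 6.7 on MII arrays, so the groups did not overlap. In the fit without the filter on dim probe sets, where 15.4% of all probe sets passed, its log2 change was 1.72 (limma, adjusted p = 0.0251), the only one of the 15 dim member probe sets that passed there. 1426050_at lay between 1.3 and 9.8 on one-cell arrays, against 4.2 and 27.0 on MII arrays. The annotation does not say which splice form each probe set reads.

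Mcl1 encodes a short-lived survival protein that binds Bak and Bim. Its 3 called probe sets all end in x_at, the array maker's mark for probes that may also match other transcripts, and the annotation gives no source accession for them. 1437527_x_at had 159.9, 214.5, 283.6 and 286.8 on one-cell arrays, against 68.8, 100, 89.4 and 122.5 on MII arrays, with no overlap. Its log2 change was 1.22 ± 0.30 (limma, adjusted p = 0.00553), a 2.48-fold difference of means.

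1456243_x_at of Mcl1 had 123, 135, 202.4 and 190.6 on one-cell arrays, against 22.2, 81.6, 43.9 and 59.7 on MII arrays, and changed by 1.55 ± 0.36 (adjusted p = 0.00349). 1456381_x_at had 69.5, 120.7, 127 and 97.9 on one-cell arrays, against 22.9, 55.2, 49.0 and 59.2 on MII arrays, and changed by 1.03 ± 0.36 (adjusted p = 0.0376). In both, one-cell array 1 was the lowest embryo batch and MII array 1 the lowest oocyte batch.

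The Mcl1 calls depended on the scaling. After quantile normalization none of the 3 passed, with log2 changes of 0.66, 1.03 and 0.54 (limma, adjusted p = 0.150, 0.0520 and 0.318 for 1437527_x_at, 1456243_x_at and 1456381_x_at). With median centring 1456243_x_at still passed (1.24, adjusted p = 0.0384), and the other 2 did not (0.90 and 0.72, adjusted p = 0.111 and 0.216). The call of 1456381_x_at was also lost without MII array 1 or 3 or without one-cell array 2, 3 or 4 (log2 change 0.79 to 1.07), and in the fit without the filter (adjusted p = 0.0820).

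The Mcl1 probe sets with a named source sequence did not pass. 1416880_at had 94.6, 91.1, 103.5 and 121 on one-cell arrays, against 30.4, 58.4, 34.8 and 104.7 on MII arrays, so MII array 4 alone reached the embryo range. Its log2 change of 0.87 ± 0.37 missed the threshold (limma, adjusted p = 0.0889), and it passed without MII array 4 (1.17, adjusted p = 0.0300). It passed in 2 of 18 alternatives, and was weaker after quantile normalization (0.40, adjusted p = 0.467) or without MII array 1 (0.67, adjusted p = 0.246). 1448503_at had 81.3, 24.3, 32.5 and 38.0 on one-cell arrays, against 42.6, 34.8, 47.0 and 29.6 on MII arrays, with one-cell array 1 above all others. Its log2 change was 0.07 ± 0.42. The dim 1416881_at lay between 21.6 and 132.5 on one-cell arrays, against 11.1 and 42.4 on MII arrays.

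Bcl2l10 encodes a Bcl2-like protein known for its high expression in oocytes, for which both protective and death-promoting activity have been described in the mouse. Its only probe set, 1416434_at, had 53173, 32991, 14573 and 36443 on one-cell arrays, against 19083, 25794, 19130 and 27122 on MII arrays. The groups overlapped: one-cell array 3 was the lowest of the 8 and one-cell array 1 the highest. The mean was 34295 ± 15829 in one-cell embryos and 22782 ± 4279 in MII oocytes (SD, n = 4 each), and the log2 change of 0.47 ± 0.49 did not pass (limma, adjusted p = 0.527). The probe set was among the 6 brightest of 45037 on all 8 arrays. Brightness also depends on the probes, so this rank is not an mRNA amount.

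Bcl2 itself, the founding survival gene, had 1 of its 5 probe sets above the array median on at least 4 arrays. Another 2 were above it on 1 or 2 arrays. 1422938_at had 152.2, 67.9, 29.7 and 13.5 on one-cell arrays, against 45.3, 72.2, 40.5 and 74.5 on MII arrays. The embryo batches spread over a range that held all of the oocyte batches, and the log2 change was -0.18 ± 0.51 (limma, adjusted p = 0.838). The dim probe set 1437122_at lay between 5.7 and 28.2 on one-cell arrays, against 13.8 and 25.2 on MII arrays. 1440770_at lay between 2.1 and 22.7 on one-cell arrays, against 0.4 and 13.6 on MII arrays. In 1443837_x_at and 1457687_at one-cell array 1 was the brightest, at 88.5 and 120.4. The other one-cell arrays gave 6.8 to 33.4 in these probe sets, against 1.7 to 37.3 on MII arrays.

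**Figure D2:**
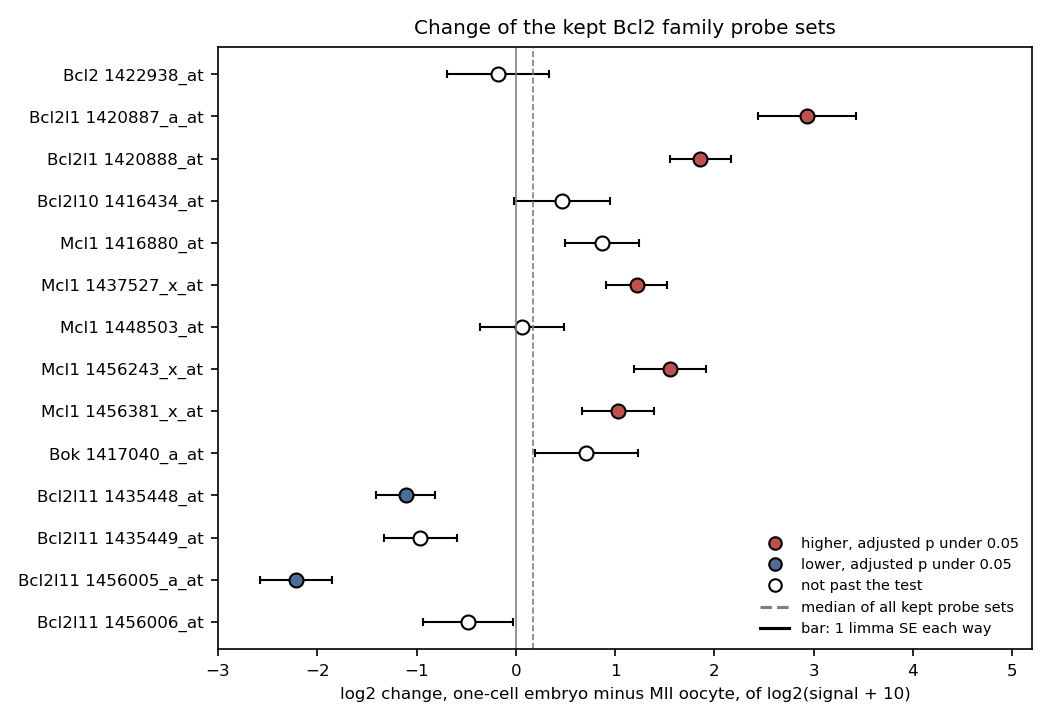
Log2 change (one-cell embryo minus MII oocyte, of log2(signal + 10)) of the 14 tested Bcl2 family probe sets, with bars of 1 limma SE each way, filled where adjusted p was under 0.05. Bcl2l1 (1.86 and 2.94) and Bcl2l11 (-1.11 and -2.21) lie at opposite ends, and the dashed line marks the median of all tested probe sets, 0.17.

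Bcl2l11 encodes Bim, the BH3-only protein that binds all the main survival proteins. Its probe set 1456005_a_at had 458, 335.3, 778 and 606 on one-cell arrays, against 1216, 3494, 2934 and 2862 on MII arrays. The highest embryo batch was below the lowest oocyte batch, MII array 1, which stood under the other MII arrays. The mean was 544 ± 191 in one-cell embryos and 2626 ± 982 in MII oocytes (SD, n = 4 each), so the MII mean was 4.83-fold that of one-cell embryos. The log2 change was -2.21 ± 0.36 (limma, adjusted p = 0.000197), the smallest p of the member probe sets.

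1435448_at of Bcl2l11 had 247.5, 513, 519 and 505 on one-cell arrays, against 1062, 902, 962 and 827 on MII arrays. The groups did not overlap, with one-cell array 1 far below the other embryo batches. The log2 change was -1.11 ± 0.29 (limma, adjusted p = 0.00807). With the hybridization control signal as a covariate it was -0.69 and no longer passed (adjusted p = 0.0931), and without one-cell array 1 it was -0.86 and passed (adjusted p = 0.0106).

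The remaining tested probe sets of Bcl2l11 did not pass. 1435449_at had 115.9, 63.7, 99.1 and 47.6 on one-cell arrays, against 207.7, 86.4, 245 and 147 on MII arrays, and MII array 2 lay within the embryo range. Its log2 change was -0.96 ± 0.37 (limma, adjusted p = 0.0574). It passed without MII array 2 (-1.24, adjusted p = 0.0185), without one-cell array 1 (-1.14, adjusted p = 0.0185) and after quantile normalization (-1.34, adjusted p = 0.0133). Without MII array 3 (-0.77, adjusted p = 0.190) or one-cell array 4 (-0.76, adjusted p = 0.172) it was weaker. It passed in 6 of 18 alternatives.

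1456006_at of Bcl2l11 had 161.7, 25.9, 33.7 and 61.4 on one-cell arrays, against 64.7, 68.3, 79.4 and 128.7 on MII arrays. One-cell array 1 was the highest of all 8, while the other embryo batches were below every oocyte batch. Its log2 change was -0.48 ± 0.45 (limma, adjusted p = 0.479), and without one-cell array 1 it was -0.94 and passed (adjusted p = 0.0435). Leaving out that array thus raised the number of member probe sets called lower to 4, all of them of Bcl2l11. Leaving out other arrays weakened 1456006_at, to -0.18 without one-cell array 2 (adjusted p = 0.808) and -0.28 without MII array 4 (adjusted p = 0.744). It passed in 4 of 18 alternatives. The dim probe set 1426334_a_at lay between 2.9 and 24.1 on one-cell arrays, against 2.7 and 26.8 on MII arrays.

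Bid and Bad, the other BH3-only members, were dim on every array. Bid links death receptors to mitochondria after cleavage by caspase-8, and its 3 probe sets lay between 1.3 and 5.8 on one-cell arrays, against 1.5 and 14.8 on MII arrays. Bad, a sensitizer that survival kinases switch off by phosphorylation, had 12.1 to 46.3 on one-cell arrays, against 6.8 to 23.8 on MII arrays, for 1416582_a_at. For 1416583_at it had 2.4 to 27.7 on one-cell arrays, against 0.8 to 16.5 on MII arrays. None of these 5 probe sets was above the array median on any array.

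Of the effectors, Bak1 was also dim. 1418991_at lay between 1.9 and 11.8 on one-cell arrays, against 2.7 and 19.9 on MII arrays. 1425716_s_at lay between 14.4 and 37.5 on one-cell arrays, against 1.7 and 36.5 on MII arrays. Bok, an effector-like member that does not depend on the survival proteins in the same way, had 249.8, 101.2, 26.7 and 53.9 on one-cell arrays, against 24, 73.0, 35.4 and 63.7 on MII arrays, in 1417040_a_at. One-cell array 1 was the highest by far, the groups overlapped, and the log2 change was 0.71 ± 0.52 (limma, adjusted p = 0.341). Without one-cell array 1 it was 0.20.

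Probe sets of one gene were then set against each other within each array. The same offset as in the main test was added to each signal before the ratio was taken. The scaling of the array is therefore largely taken out for signals far above the offset, and only in part for dim ones. For the 17 pairs of tested probe sets of Bcl2l1, Mcl1 and Bcl2l11, the log2 ratio was compared between the groups. In 0 of the 17 pairs did the ratio separate the groups, and 0 pairs had an unadjusted p under 0.05 (two-sided exact permutation test, where 0.0286 is the smallest p that 4 against 4 arrays allow). The lowest exact p was 0.0571, reached by 3 pairs (0.243 after Benjamini-Hochberg adjustment over the pairs). One was 1456005_a_at and 1456006_at of Bcl2l11, whose log2 ratio was 3.00 in one-cell embryos and 4.73 in MII oocytes. A p that misses the threshold does not show that the called and uncalled probe sets of a gene changed alike. Without one-cell array 1, the ratio separated the groups in 5 of the 17 pairs, without MII array 1 in 3 and without MII array 2 in 4. Leaving out an array can keep or raise this count but never lower it, so no conclusion is drawn from the rise.

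**Figure D3:**
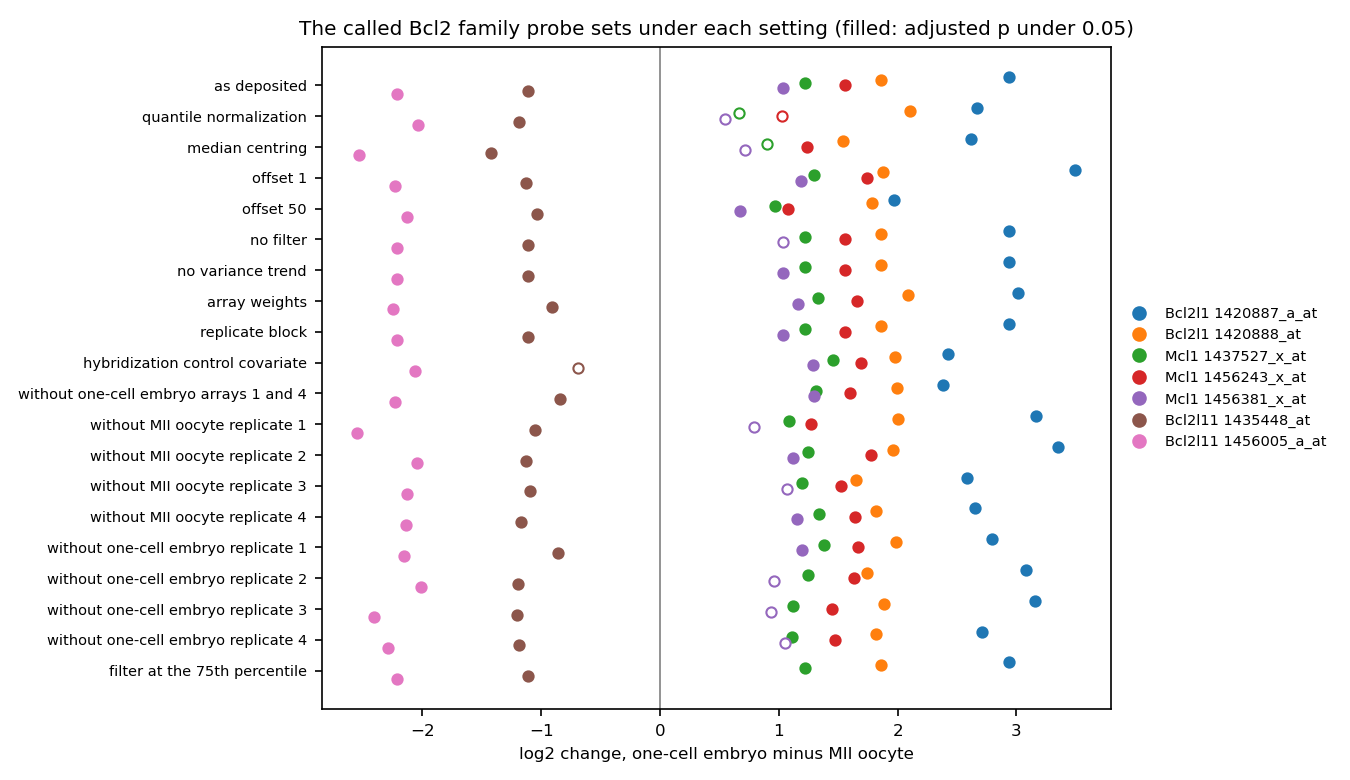
Log2 change (one-cell embryo minus MII oocyte) of the 7 called Bcl2 family probe sets, one colour each, under each setting (rows), filled where adjusted p was under 0.05. Both Bcl2l1 probe sets and Bcl2l11 1456005_a_at stay filled in every row, while the Mcl1 probe sets open after quantile normalization, and 2 of them are not tested under the stricter filter.

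The genes whose pattern over the 8 arrays was most like that of Bcl2l11 1456005_a_at, among 19995 probe sets of other genes, were Il6st, Ccnyl1 and Vcpip1. Likeness was the root mean square difference of log2 values after each probe set's mean was subtracted, and it was 0.29, 0.33 and 0.35. Il6st, the shared receptor subunit of the interleukin-6 family, had 298, 415.5, 530.7 and 458 on one-cell arrays, against 1161, 2848, 1942 and 2040.2 on MII arrays. As in Bcl2l11, MII array 1 was the lowest oocyte batch, a match that the choice by likeness over these same arrays favours.

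The rest of the pathway was followed through a list of 59 other cell death genes, of which 42 had a tested probe set, each taken by its brightest one. Of these, 12 were higher and 7 lower in one-cell embryos (limma, adjusted p under 0.05), 19 in all, while 34.8% of all 12359 genes passed, 20.1% higher and 14.7% lower. The median log2 change was 0.29 over the 42 genes and 0.16 over all genes. The counts moved with single libraries: higher calls fell to 7 without MII array 1 and to 7 without one-cell array 4, and lower calls to 4 without MII array 1, MII array 3 or one-cell array 4.

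Among the other BH3 proteins, 1 of 5 tested genes rose and 2 fell. Bik, a BH3-only protein of the endoplasmic reticulum, had a mean of 292 ± 61.0 in one-cell embryos and 162 ± 37.4 in MII oocytes (SD, n = 4 each), a log2 change of 0.82 ± 0.29 (adjusted p = 0.0423). Becn1, the autophagy regulator that Bcl2 binds, changed by -1.54 ± 0.31 (adjusted p = 0.00106), and Bnip3, which marks mitochondria for removal, by -1.30 ± 0.28 (adjusted p = 0.00181). Bmf did not pass (0.66 ± 0.38). With all probe sets of a gene averaged, Becn1 (-0.43, adjusted p = 0.214) and Bik (0.46, adjusted p = 0.191) no longer passed. Bik was also lost after quantile normalization (0.43, adjusted p = 0.293). A further Becn1 probe set, 1460320_at, was also lower (-1.16 ± 0.31, limma, adjusted p = 0.00783). Its remaining tested probe sets changed by 0.41, 0.31 and -0.16 and did not pass.

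Bcl2l2, which encodes the survival protein Bcl-w, was the only other survival member tested and did not pass (-0.50 ± 0.34, adjusted p = 0.296). It passed as lower after quantile normalization (-0.90, adjusted p = 0.0217). Of the Bcl2-like genes, Bcl2l12 rose (1.57 ± 0.48, adjusted p = 0.0187), with 2 of its 4 MII signals above the array median, and Bcl2l13, a mitochondrial membrane protein, fell (-0.75 ± 0.27, adjusted p = 0.0412), with its other probe set also lower (-1.08 ± 0.32). Bcl2l13 did not pass after quantile normalization (-0.54, adjusted p = 0.114). Bcl2l14 did not pass (-0.35 ± 0.39).

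Downstream of the mitochondrion, 1 of 8 mitochondrial factors rose and 1 fell. Vdac3, a channel of the outer membrane, had 2333 ± 1082 in one-cell embryos and 396 ± 89.6 in MII oocytes (SD, n = 4 each), a log2 change of 2.41 ± 0.36 (adjusted p = 8.82e-05). Htra2, a protease that inactivates caspase inhibitors once released, changed by -1.24 ± 0.29 (adjusted p = 0.00358). Vdac2, which holds Bak, and the nuclease Endog did not pass (0.58 ± 0.32 and 0.85 ± 0.47).

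Of Apaf1 and the caspases, 1 of 5 fell and 0 rose. Apaf1, the scaffold that cytochrome c switches on, had 103 ± 48.9 in one-cell embryos and 268 ± 85.5 in MII oocytes (SD, n = 4 each), a log2 change of -1.35 ± 0.35 (adjusted p = 0.00691). Its other probe set changed by 0.33, and the mean of both by -0.51 (adjusted p = 0.282). Casp9, the caspase that Apaf1 recruits, did not pass (-0.81 ± 0.39, adjusted p = 0.132), nor did Casp8 (0.68 ± 0.33) or Casp2 (-0.38 ± 0.31). The groups of Casp9 did not overlap, and it passed as lower after quantile normalization (-1.12, adjusted p = 0.0411). With median centring it did not pass (-1.12, limma, adjusted p = 0.0574), and 2 of its 4 one-cell signals were above the array median.

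The caspase inhibitors of the IAP family held 1 rise and 1 fall among 5. Birc5, or survivin, which also serves in chromosome segregation, had 2631 ± 1012 in one-cell embryos and 968 ± 412 in MII oocytes (SD, n = 4 each), a log2 change of 1.46 ± 0.37 (adjusted p = 0.00630). It did not pass with median centring (1.15, adjusted p = 0.153). Birc2 changed by -1.26 ± 0.38 (adjusted p = 0.0176). Xiap, the direct inhibitor of the executing caspases, did not pass on its brightest probe set (0.85 ± 0.35, adjusted p = 0.0774), and neither did Birc3 (-0.97 ± 0.40, adjusted p = 0.0775). The groups of Birc3 did not overlap, with 8547 ± 3290 in one-cell embryos and 15708 ± 926 in MII oocytes (SD, n = 4 each). Birc3 passed as lower after quantile normalization (-0.74, limma, adjusted p = 0.0362) but not with median centring (-1.29, adjusted p = 0.0912).

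Of the genes that feed death receptor signals into the pathway, 4 of 5 tested rose and 0 fell, beside 20.1% of all genes higher. Of these, Fadd and Tradd passed both after quantile normalization and with median centring. Tradd had no other tested probe set, so averaging probe sets was no check on it. Fadd, the adaptor that recruits caspase-8, had 344 ± 117 in one-cell embryos and 105.0 ± 33.1 in MII oocytes (SD, n = 4 each), a log2 change of 1.61 ± 0.32 (adjusted p = 0.000939). Its other probe set changed by 0.65, and the mean of both did not pass (1.13, adjusted p = 0.0587). The adaptor Tradd changed by 1.94 ± 0.47 (adjusted p = 0.00419), with 1 of its 4 MII signals above the array median. Tnfrsf1a, a receptor for tumour necrosis factor, changed by 1.22 ± 0.41 (adjusted p = 0.0305), and Cflar, which blocks caspase-8, by 0.98 ± 0.35 (adjusted p = 0.0424). The calls of Tnfrsf1a and Cflar were lost after quantile normalization (adjusted p = 0.146 and 0.172). The other probe set of Cflar changed by -0.98, and the mean of both did not pass.

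Among regulators and partners of the family, 4 of 10 rose and 1 fell. Aven, which binds Bcl-xL and Apaf1, had the largest change among the 42 genes, with 2411 ± 1222 in one-cell embryos and 67.5 ± 33.7 in MII oocytes (SD, n = 4 each) and a log2 change of 4.90 ± 0.39 (adjusted p = 2.55e-07). The chaperone partners Bag4 (3.45 ± 0.29, adjusted p = 5.13e-07) and Bag1 (1.60 ± 0.49, adjusted p = 0.0178) rose, as did Tmbim6, a membrane protein of the endoplasmic reticulum that opposes Bax (1.46 ± 0.33, adjusted p = 0.00256). Bag1 had 1 of its 4 MII signals above the array median. After quantile normalization Bag1 did not pass (1.32, limma, adjusted p = 0.0642), nor did it with median centring (1.28, adjusted p = 0.0841). With median centring neither Tmbim6 (1.15, adjusted p = 0.104) nor Trp63 (-1.74, adjusted p = 0.0775) passed. Trp63, the p53 relative known to guard the oocyte genome, was lower (-1.42 ± 0.49, adjusted p = 0.0356) and is named here after its value was seen. Its change was -0.79 without one-cell array 1. Its other probe set changed by 0.09, and the mean of both did not pass (-0.66, adjusted p = 0.0848).

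**Figure D4:**
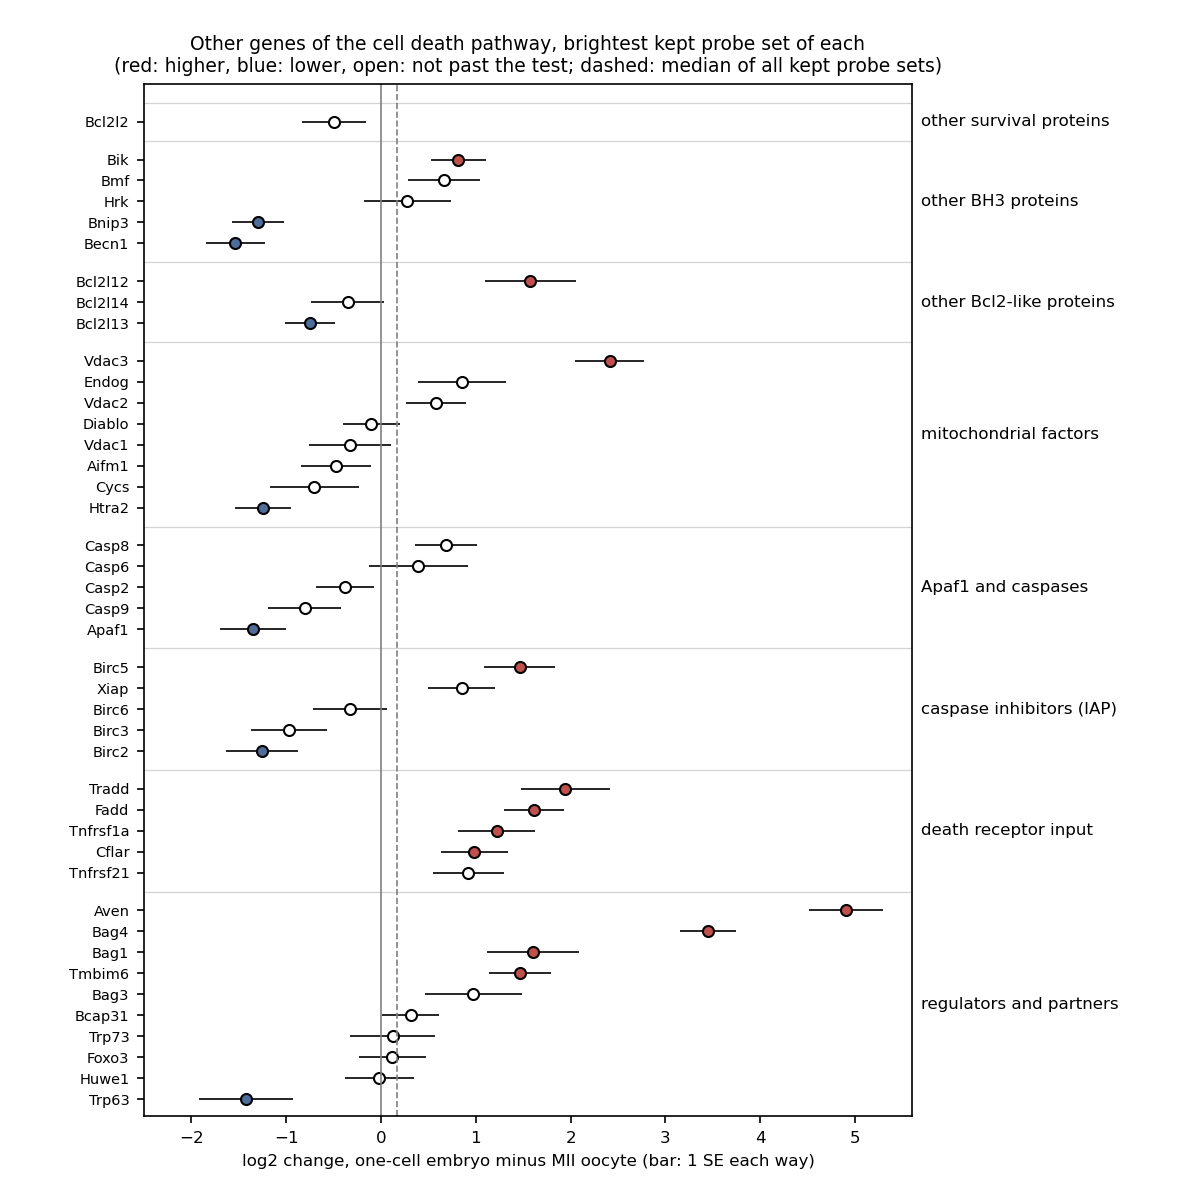
Log2 change (one-cell embryo minus MII oocyte) of the 42 tested genes of the cell death pathway list, by role, with bars of 1 limma SE each way (red higher, blue lower, open not past the test). Aven at 4.90 and Bag4 at 3.45 lie farthest to the right, 4 of the 5 death receptor genes are red, and Becn1 at -1.54 lies farthest to the left. Over all genes 20.1% were higher.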

How the data were processed

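Per the labels, RNA from polysomes was amplified linearly in 2 rounds of in vitro transcription, with biotin as the only dye. The deposited values are linear intensities, 1 for each probe set on an array. From the values, the mean after trimming 2% at each end was 150.0 on every array, so the deposited intensities had been scaled. No source used here names the array software or a genome build. Amplification favours 3′ ends, and scaling hides any change in total polysomal mRNA.

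From the intensities, log2(signal + 10) was computed. Of 45101 probe sets, 64 controls were left out, and 23336 lay above the array median on at least 4 of 8 arrays. One-cell embryos were compared with MII oocytes (4 arrays each, independent replicates per the labels) with limma 3.58.1 in R 4.3.3 (lmFit, eBayes with a variance trend, two-sided), with Benjamini-Hochberg adjustment over all probe sets kept. The number of arrays limits the precision. GEO's platform annotation, updated through the RefSeq gene table (34741 of 34945 single-gene probe sets matched), named the genes.

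The members, lists and tests were chosen with earlier results of these data known. All member probe sets are given. Of the pathway list, the 4 genes with the smallest p per role are named. Likeness was measured for the member probe set with the smallest p. Alternatives covered scaling, offset, filter, variance model, array weights, replicate block, control covariate and arrays left out.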

Additional observations from a re-analysis of the deposited data

Results flagged for a closer look

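In 4 of 58 sets of 4 arrays (29 member probe sets in each group), 1 array lay far from the other 3 by Dixon's criterion, which chance meets in about 1 of 20 sets. Among the tested probe sets this was Bcl2l11 1435448_at, with 247.5 on one-cell array 1, below the 505 to 519 of the other one-cell arrays. The others were dim: Bcl2l11 1426334_a_at with 2.9 on one-cell array 1, Bid 1448560_at with 2.4 on one-cell array 3, and Bcl2 1437122_at with 13.8 on MII array 4.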

How the results depend on the processing

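Both Bcl2l1 probe sets and Bcl2l11 1456005_a_at kept their direction and call under all 19 alternatives (log2 changes of 1.97 to 3.49 for 1420887_a_at, 1.54 to 2.10 for 1420888_at and -2.55 to -2.01 for 1456005_a_at). The 5 higher member calls became 2 after quantile normalization, 3 with median centring and 3 with the filter at the 75th percentile, which tests fewer probe sets. The 2 lower calls became 4 with array weights. With 1 array left out, higher calls ranged from 4 to 6 and lower calls from 2 to 4. The 12 higher pathway calls became 6 with median centring and 6 without one-cell arrays 1 and 4, and ranged from 7 to 12 with 1 array left out. The 7 lower ones became 4 with the control covariate and 4 with probe sets averaged, and ranged from 4 to 8. Probe-set pairs without overlap numbered 1 with an offset of 50 and 0 to 5 with 1 array left out, which cannot lower that count. Calls over all probe sets ranged from 6001 to 7690 with 1 array left out. Changes near 0 that had not passed turned sign: Bcl2 1422938_at without one-cell array 3 or 4 (0.0076 and 0.26), Bcl2l10 with the control covariate or without one-cell arrays 1 and 4 (-0.26 and -0.036), and Bok with the covariate (-0.39). Mcl1 1448503_at turned after quantile normalization (-0.26), with centring (-0.25), array weights (-0.23) or the covariate (-0.36), and without one-cell arrays 1 and 4 (-0.33), MII array 4 (-0.03) or one-cell array 1 (-0.22). With 1 array left out, Bcl2 1422938_at ranged from -0.67 to 0.26 and Mcl1 1448503_at from -0.22 to 0.25. Where no value shows otherwise, the cause was not tested.

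The groups share replicate numbers, but the labels do not say that these pair the batches. Same-numbered arrays deviated from their group means with correlations of -0.16 to 0.14, and 0 of 4 one-cell arrays correlated best with their own number. With the replicate number as a block, 7209 probe sets passed, and the member calls were 5 higher and 3 lower, the addition being Bcl2l11 1435449_at (adjusted p = 0.0463).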

Other observations

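For 22 of the 42 pathway genes, 35 further probe sets were tested, and 10 of them passed (limma, adjusted p under 0.05), beside 32.1% of all tested probe sets. In 6 of the 10 the brightest probe set of the gene had not passed. Of these 6, 3 were higher. Foxo3, a transcription factor that can switch on Bcl2l11, had 849 ± 129 in one-cell embryos and 123 ± 38.2 in MII oocytes (SD, n = 4 each) on 1450236_at, a log2 change of 2.72 ± 0.28 (adjusted p = 3.21e-06), beside 0.12 on its brightest probe set. Huwe1, a ubiquitin ligase for Mcl-1, changed by 2.07 ± 0.32 on 1415703_at, beside -0.02 on its brightest. Trp73, a p53 relative, changed by 1.57 ± 0.43 on 1427697_a_at, which was above the array median on 1 of 4 MII arrays.

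The 3 lower ones were of Cycs, Xiap and Birc6. Cycs, which encodes cytochrome c, changed by -1.14 ± 0.31 on 1422484_at. Xiap 1437533_at had 34.4 ± 7.1 in one-cell embryos and 104 ± 37.6 in MII oocytes (SD, n = 4 each), a log2 change of -1.32 ± 0.35 (adjusted p = 0.00870), while its brightest probe set changed by 0.85 and did not pass. Birc6, a giant inhibitor of apoptosis, changed by -1.25 ± 0.39 on 1427488_a_at. Whether the probe sets of these genes differ in change was not tested.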
